A study of Mus musculus with 27 samples.

Results

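Accessible chromatin regions that lie close together on a chromosome were taken as chains and described as units. The regions of the deposited count table were sorted by chromosome and start, and neighbours were joined when the gap from the end of one to the start of the next was 10000 bp or less. A chain of 4 or more regions is called a dense chain here, and the dense chains held 2665 of the 30815 regions (8.65%), in 578 chains. No measured count entered that choice, although how the regions themselves were defined is not given in the sources used here. The question was whether the neighbours in a dense chain changed together when cells received the reprogramming factors.

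Open chromatin was assayed by ATAC-seq, where a transposase cuts accessible DNA and tags the ends. The cells were an immortalised line of neonatal mouse cardiac fibroblasts that carries large T antigen, from the strain Cd-1 with the genotype alpha-MHC-GFP. Retroviruses brought in Gata4 (G), Mef2c (M) and Tbx5 (T) alone, as the pairs GM, GT and MT, or as GMT, and the control received dsRed. All 7 factor groups were also given sb431542, an inhibitor of TGF-beta signalling, and xav939, an inhibitor of Wnt signalling, and the control was not, so each comparison with the control holds factors and inhibitors together and cannot tell them apart. Cells were unsorted at day 2, so a level is an average over infected and uninfected cells of 1 line, and each group has 3 libraries that the labels call biological replicates without saying what separates them. For the inhibitor-matched view, 3 averages were taken among the factor groups: adding G sets GM, GT and GMT against M, T and MT, adding M sets GM, MT and GMT against G, T and GT, and adding T sets GT, MT and GMT against G, M and GM. Markers of fibroblasts or heart muscle could not be checked, because the regions were not assigned to genes.

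Gata4 is a zinc-finger protein that can bind its sites in closed chromatin, Mef2c is a MADS-box factor of muscle genes and Tbx5 is a T-box factor of the developing heart. Together they are used to turn cardiac fibroblasts into cells like heart muscle. Accessible regions include promoters and enhancers, and several enhancers often lie near a gene that is strongly active in a cell type. Regions in such a cluster can be bound by different factors, so neighbours may change together or apart.

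Library totals ran from 241394 to 1704896 counts. Chi-square statistics between replicates of a group were 1.47 to 7.84 per degree of freedom, so no 2 libraries matched within sampling noise. Across dense chains, log2 CPM (counts scaled to library size) correlated at a Spearman rho of 0.816 to 0.982 between libraries of a group. In 4 libraries the mean rho was higher with another group than with their own: 0.948 with G and 0.855 with its own group for the library labelled GT replicate 1, 0.940 with the control and 0.893 with its own for G replicate 2, 0.931 with the control and 0.919 with its own for GM replicate 2, and 0.897 with MT and 0.847 with its own for GMT replicate 1. Of these libraries, G replicate 2, GM replicate 2 and GMT replicate 1 had the lowest totals of their groups, and GT replicate 1 did not. Results that moved without one of these libraries are given below.

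Most dense chains were short. There were 374 chains of 4 regions, 122 of 5, 46 of 6, 21 of 7 and 15 longer ones, up to a chain of 13. They spanned a median of 13493.5 bp (1037 to 47976 bp), and the 2087 gaps inside them had a median of 2862 bp. Some neighbours were nearly adjacent, with 413 gaps of 500 bp or less and 259 of 200 bp or less. Chains lay on all autosomes and on neither X nor Y. Chromosome 11 had the most, 58 chains that held 13.2% of its regions, and chromosome 13 had the lowest autosomal share at 5.72%.

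Member regions were somewhat wider and more open than solitary ones. The median width was 253 bp in dense chains, 242 bp in chains of 2 or 3 and 226 bp for regions alone. Per kilobase of region, the median control level was 40.5 CPM in dense chains, 39.8 CPM in chains of 2 or 3 and 32.3 CPM in regions alone. Within a chain the signal was uneven: the highest member held a median of 47.1% of the chain's CPM (19.2% to 96.9%). In all, 2046 members passed the filter on low counts, and 577 of the 578 chains could be tested on their summed counts.

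In the comparisons with the control, more dense chains were higher than lower in all 7 factor groups, by the widest margins in T, MT and GMT. Among all units, too, more were higher than lower in each of these groups. In M the balance was close and turned when some libraries were left out. A chain is called when its summed count passed an adjusted p of 0.05 in edgeR's quasi-likelihood test over all chains of 1 or more regions, and the share of all 15943 such units called is given beside each count. With Gata4 alone, 55 of 577 dense chains (9.53%) were higher and 17 (2.95%) lower, against 8.98% and 6.24% of all units. With Mef2c alone, 44 (7.63%) were higher and 37 (6.41%) lower, against 9.33% and 6.84% of all units. On the higher side both shares were near those of units at large.

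Tbx5 alone gave a larger count, 136 chains (23.6%) higher and 35 (6.07%) lower, against 14% and 10.7% of all units. GM gave 46 (7.97%) higher and 12 (2.08%) lower, against 7.78% and 3.39%. GT gave 83 (14.4%) higher and 13 (2.25%) lower, against 11.4% and 5.54%. On the higher side GM lay near its background, and T and GT lay above theirs.

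MT gave 123 chains (21.3%) higher and 24 (4.16%) lower, against 15.9% and 7.3% of all units. GMT gave 185 (32.1%) higher and 27 (4.68%) lower, against 21.6% and 9.97%. Chains sum several regions and so carry more counts than a single region, and the part that this plays in the share called was not tested.

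Among cells that all had the inhibitors, adding Tbx5 raised the most chains: 166 (28.8%) were higher and 18 (3.12%) lower, against 18.7% and 5.48% of all units. The lower count moved with the processing: the split was 152 and 32 with RLE size factors, 179 and 32 with loess offsets, 170 and 33 with total counts alone, and 155 and 35 with DESeq2. Adding Gata4 raised 75 (13%) and lowered 38 (6.59%), against 14.3% and 6.95%. Adding Mef2c raised 66 (11.4%) and lowered 28 (4.85%), against 15.7% and 4.68%, and the split was 57 and 47 with RLE size factors and 58 and 49 with DESeq2. With TMM scaling, the share raised lay below that of all units for Gata4 and Mef2c, and above it for Tbx5. The shares of all units called with the other scalings and DESeq2 are not given here.

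The number of calls depended on single libraries. Left out alone, G replicate 1 took the 72 calls of G to 21, M replicate 2 the 81 of M to 36, T replicate 2 the 171 of T to 111, GM replicate 1 the 58 of GM to 20, GT replicate 2 the 96 of GT to 24, MT replicate 1 the 147 of MT to 78 and GMT replicate 2 the 212 of GMT to 118. In M more chains were then higher than lower only in part of the cases: 18 were higher and 18 lower without M replicate 2, 30 and 34 without M replicate 3, 21 and 22 without control replicate 2, 16 and 25 without control replicate 3, and 26 and 39 with no filter on low counts. With GT replicate 1 removed, GT counted 105 chains higher and 9 lower, adding G 71 and 27, adding M 62 and 29, and adding T 179 and 29. Other single libraries that moved these counts by more than 1.5 times were G replicates 2 (123 calls) and 3 (24), M replicate 1 (45), GM replicate 3 (24) and MT replicate 2 (94). Control replicate 2 took G to 29, M to 43, GM to 24, GT to 56 and MT to 95, and control replicate 3 took them to 23, 41, 21, 36 and 85.

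**Figure D1:**
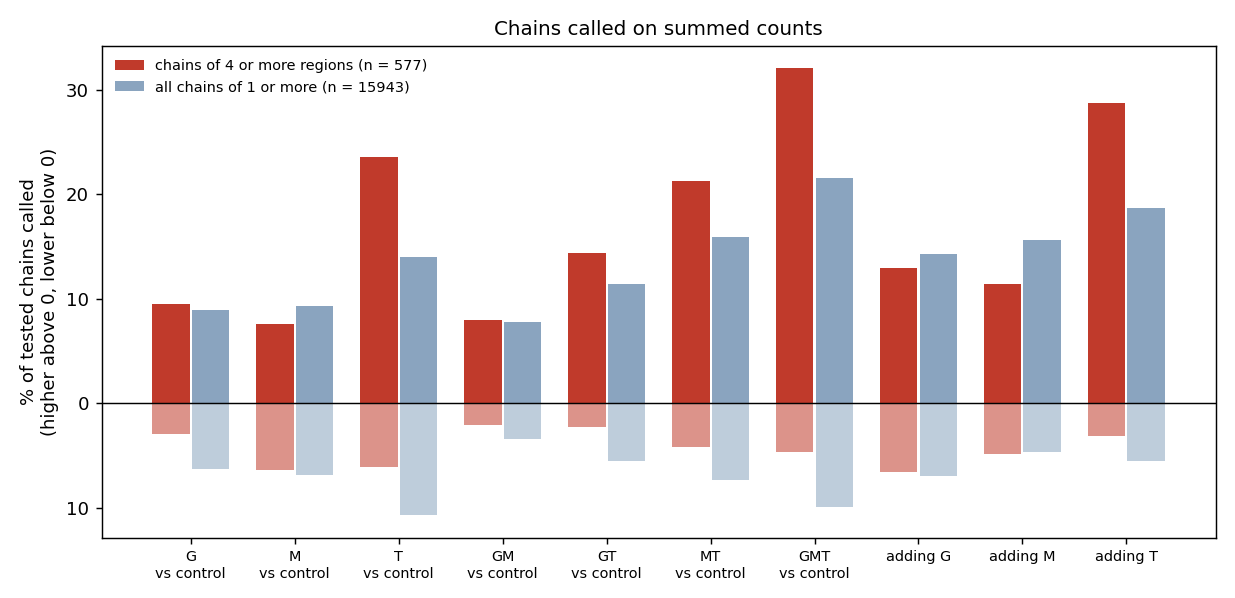
Percentage of chains called higher (above 0) or lower (below 0) on summed counts in each comparison, for the 577 dense chains tested (red) and for all 15943 units (blue). The red bars stand above the blue ones on the higher side for T (23.6% against 14%), GMT (32.1% against 21.6%) and adding T (28.8% against 18.7%).

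The share of chains higher in GMT was 29.5% at 4 regions, 34.4% at 5, 32.6% at 6 and 50% at 7 or more, and with added T it was 27.6%, 28.7%, 23.9% and 47.2%. No steady rise with size was seen, and the difference of the longest class from the others was not tested. Of the 36 chains with 7 or more regions, 18 (50%) were higher in GMT and 1 was lower, and 17 (47.2%) were higher with added T and none was lower. Among the 373 tested chains of 4 regions the GMT counts were 110 higher and 19 (5.09%) lower. The median log2 fold change of GMT was 0.74 in the longest class and 0.30 in chains of 4, against 0.04 over all units. At the edge of the definition, 34.6% of chains of 4 and 31.5% of chains of 3 were called in GMT, with median log2 fold changes of 0.30 and 0.08.

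Single members were also called higher most often in GMT. Of the 2046 members tested as single regions, 679 (33.2%) were higher and 123 (6.01%) lower in GMT, where 23% and 10.5% of all 20494 tested regions were. With loess offsets in place of TMM, 482 members were higher and 171 lower in GMT. In T, 408 members were higher and 122 lower, against 14.5% and 10.6% of all regions, that is 19.9% and 5.96% of the members tested. In MT, 442 were higher and 78 lower, against 17.5% and 7.2% of all regions, and with loess offsets 342 were higher and 135 lower. The shares of all regions called with loess offsets are not given here, so the loess counts have no background beside them.

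In G, 243 members (11.9%) were higher and 77 (3.76%) lower, against 9.61% and 6.07% of all regions. In M the counts were 188 (9.19%) and 115 (5.62%), against 9.67% and 6.47%. The members' shares in M were close to those of all regions. The filter ran over all 8 groups, so a member could pass through another group where it was high. With the fit made on the compared groups alone, 244 members were higher and 223 lower of 1297 tested in M. The counts were then 268 and 115 of 1502 in G, 357 and 151 of 1271 in T and 428 and 134 of 1461 in MT. The shares of all regions called in those fits are not given here. GM gave 202 higher (9.87%) and 55 lower (2.69%), against 8.5% and 3.75%, and GT gave 338 higher (16.5%) and 77 lower (3.76%), against 13.1% and 5.81%.

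Adding T raised 562 members (27.5%) and lowered 97 (4.74%), against 20.3% and 5.86% of all regions, and with loess offsets 497 rose and 193 fell. Adding G raised 325 (15.9%) and lowered 141 (6.89%), against 15% and 7.25%, or 270 and 204 with loess offsets. Adding M raised 310 (15.2%) and lowered 97 (4.74%), against 16.2% and 4.58%, or 238 and 182 with loess offsets. With TMM scaling, the Tbx5 average was on the higher side the furthest of the 3 from its background. The loess counts have no such background here.

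The part of a library that fell in dense chains was on average larger with the factors, by a narrow call. Their share of a library's counts was 9.84% ± 0.84 in the 21 factor libraries and 8.76% ± 0.21 in the 3 control libraries (SD). The factor libraries ran from 8.61% to 12.1% with a median of 9.63%, and the controls were 8.52%, 8.85% and 8.92%. Of the 21 factor libraries, 18 lay above all controls, and the exact permutation test gave p = 0.0119 (two-sided, 0.0474 adjusted over 4 tests). That call was lost in 17 of the 24 cases in which 1 library was left out: the adjusted p was 0.0542 without GT replicate 1, the same without GMT replicate 2, the highest library, and 0.158, 0.0791 and 0.07 without control replicates 1, 2 and 3.

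By group the mean share was 9.72% ± 0.84 in G, 9.11% ± 0.19 in M, 10.4% ± 0.69 in T, 9.42% ± 0.77 in GM, 9.90% ± 0.58 in GT, 9.80% ± 0.63 in MT, 10.6% ± 1.48 in GMT and 8.76% ± 0.21 in the control (SD, n = 3 each). Groups with Tbx5 averaged 10.2% ± 0.85 in 12 libraries and factor groups without it 9.42% ± 0.64 in 9 libraries, with a permutation p of 0.035 and an adjusted p of 0.07. The difference was 0.15 percentage points with Gata4 (permutation p = 0.707) and -0.26 with Mef2c (permutation p = 0.496). The shallowest library, GMT replicate 1, had a share of 9.10% with an exact 95% binomial interval of 8.99% to 9.22%, so counting error was far smaller than the spread between libraries.

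**Figure D2:**
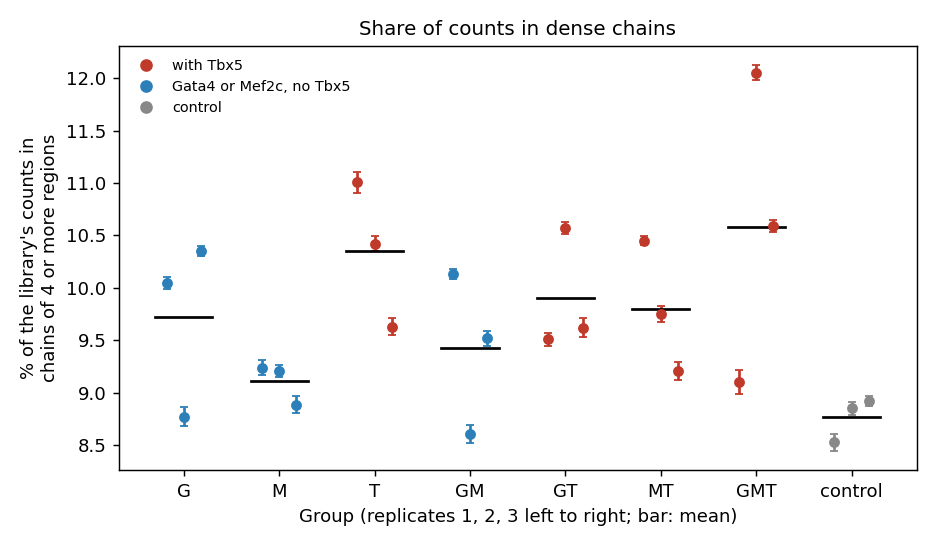
Share of each library's counts that fell in dense chains, by group, with exact 95% binomial intervals that cover counting error only and a bar at the group mean. GMT replicate 2 is highest at 12.1%, and the control libraries sit between 8.52% and 8.92%; the axis does not start at 0.

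Neighbours in a dense chain changed together only in part. Across the 1292 adjacent tested pairs in dense chains, the log2 fold changes of the neighbours had a Pearson r of 0.18 in G, 0.24 in M, 0.31 in T, 0.20 in GM, 0.20 in GT, 0.28 in MT and 0.33 in GMT. For the averages r was 0.25 with added G, 0.27 with added M and 0.43 with added T. Neighbours had the same sign in 58.8% of pairs in GM up to 65.9% in GMT and with added T. In chains of 2 or 3 regions this share was 57.6% in M up to 64.5% with added T. At gaps over 100000 bp it was 50.9% with added G up to 56.3% in G. Between dense chains and chains of 2 or 3, r was higher in dense chains in M and with added T and lower in the other comparisons, as in G (0.18 against 0.29). Partial agreement was thus not particular to dense chains. These are descriptions: neighbours are measured in the same libraries and share their depth and base composition, and at short gaps a fragment may count in both.

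Where both neighbours were called, they mostly went the same way. In GMT both were called in 257 pairs, of which 226 agreed and 31 were opposite, and in 485 pairs only 1 of the neighbours was called. In T both were called in 124 pairs and agreed in 107. With added T, 200 of 214 such pairs agreed, with added M 56 of 61 and with added G 67 of 83. Neighbours in chains of 2 or 3 regions also mostly agreed, and the difference between dense chains and these was not tested. In GMT the agreeing share was 87.9% in dense chains, 80.4% in chains of 2 or 3 and 63.3% among neighbours more than 10000 and up to 100000 bp apart. In T these were 86.3%, 84.2% and 59.3%, and with added T 93.5%, 90.1% and 74.4%. The share was lower in dense chains than in chains of 2 or 3 in G (80% and 86.1%), M (79.4% and 82.2%) and GM (78.1% and 82.8%). It was also lower in GT (81.3% and 86.9%) and with added G (80.7% and 84.5%). Most called regions were higher, and in GMT more so in dense chains, with 679 members higher and 123 lower, against 4718 and 2151 of all regions. The part that this lean plays in the agreeing shares was not tested.

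The agreement fell with distance. Over all adjacent tested regions, r was 0.58 to 0.82 across the 10 comparisons at gaps up to 200 bp and 0.47 to 0.71 at 201 to 500 bp. It was 0.33 to 0.57 at 501 to 1000 bp, 0.20 to 0.38 at 1001 to 2000 bp and 0.10 to 0.31 at 2001 to 5000 bp. At 5001 to 10000 bp it was 0.11 to 0.19, not far from the 0.07 to 0.14 seen beyond that, up to 20000 bp. Agreement was thus closest within 1000 bp. The chain limit marked no step: at gaps over 9000 and up to 10000 bp r was 0.09 in GMT and 0.16 in G, and at gaps over 10000 and up to 11000 bp it was 0.24 in GMT and 0.06 in G.

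Inside dense chains r was also lower at the longest gaps than at the shortest, but the fall was not steady. In GMT, r was 0.63 in the 168 pairs up to 200 bp apart and 0.33 in the 179 pairs at 1001 to 2000 bp. It was 0.34 in the 317 pairs at 2001 to 5000 bp and 0.10 in the 394 pairs at 5001 to 10000 bp. From 1001 to 2000 bp to 2001 to 5000 bp, r rose in G (-0.0045 to 0.15), T, GT, MT and GMT and with added G and T. It fell there in M, GM and with added M. All 39 pairs within 200 bp with both members called agreed in GMT, and 58 of 76 did at 5001 to 10000 bp. Regions 500 bp or less apart were joined to 1 region as a check, and the share of pairs with the same sign was then 56.5% in G, 55.9% in M and 58.8% in T.

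**Figure D3:**
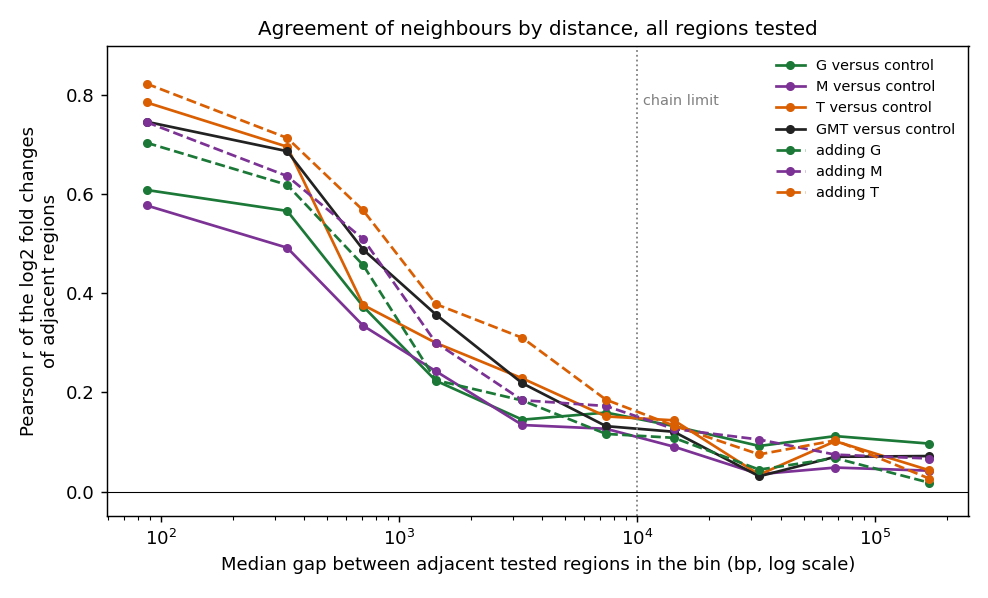
Pearson r of the log2 fold changes of adjacent tested regions against the gap between them (log axis, at the median gap of each bin), for single factors, GMT and the 3 averages. In GMT it is 0.75 at gaps up to 200 bp and 0.13 at 5001 to 10000 bp, and in T it is 0.79 and 0.15.

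Many chains changed their internal pattern. A test that all tested members of a chain had the same log2 fold change (edgeR's diffSpliceDGE, with the chain in place of a gene) could be run on 539 dense chains. It failed equality in 131 (24.3%) in G, 132 (24.5%) in M and 207 (38.4%) in T, against 13.4%, 13.9% and 22.3% of the 3443 chains of 2 or more. The counts were 109 (20.2%) in GM, 173 (32.1%) in GT, 226 (41.9%) in MT and 258 (47.9%) in GMT, against 12.2%, 18.1%, 23.3% and 28.5%. With added G, M and T they were 203 (37.7%), 200 (37.1%) and 257 (47.7%), against 23.2%, 21% and 27.7%. Chains with more members offer more contrasts, and in GMT the share was 43.6% in chains of 4 and 65.7% in those of 7 or more. Left out alone, control replicate 3 took the count to 51 in G, 71 in M, 45 in GM, 71 in GT and 122 in MT, and control replicate 2 to 72 in G, 86 in M, 58 in GM and 107 in GT. The count was 58 without G replicate 1, 83 without G replicate 3, 82 without M replicate 2 and 139 without T replicate 1. It was 53 without GM replicate 1, 74 without GM replicate 3, 82 without GT replicate 2 and 140 without MT replicate 1.

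An unequal pattern was seen with and without a change of the whole. In GMT, 99 of the 203 chains that were called on their sum and had 2 or more tested members were also unequal (48.8%), and so were 159 of the 336 not called (47.3%). In T the shares were 47.3% and 34.3%. With added T they were 61.5% and 40.8%. A chain whose sum was not called could therefore hold members that differed in their response.

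Members called in opposite directions within 1 chain were less usual than members called in 1 direction. In GMT, 224 chains had 2 or more called members, all higher in 159, all lower in 8 and in both directions in 57. In T the counts were 92, 13 and 32, in G 39, 7 and 16, and in M 25, 12 and 17. GM had 30, 3 and 16, GT 63, 5 and 20, and MT 101, 8 and 29. With added T there were 146 chains all higher, 11 all lower and 29 of both. Of chains with 2 or more called members, both directions occurred in 25.4% in GMT, 23.4% in T, 25.8% in G, 31.5% in M and 15.6% with added T. In chains of 2 or 3 regions these shares were lower, at 21.6%, 17.0%, 13.9%, 19.5% and 10.7%. Most called members were higher, and the part that this and the number of members play in these counts was not tested. In GMT, 36 chains had all their tested members called in the same direction, and in T 14, in G 5 and in M 1.

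The highest member did not speak for its chain. Its log2 fold change and that of the other members summed correlated at r = 0.17 in G, 0.20 in M, 0.28 in T, 0.30 in GMT and 0.45 with added T over 565 chains. In GMT the highest member was called in 202 chains and the rest in 224, in 87 of them both the same way and in 15 opposite ways. The medians differed in size: the rest had a median log2 fold change of 0.56 in GMT and the highest member 0.13. In G they were 0.28 and 0.05, and in T 0.38 and 0.26. The highest member was picked by its mean level in these same 24 libraries. Its median control level was 56.6 CPM, against 11.3 CPM over all members. This comparison was made with TMM scaling alone, and the part that the level plays in these medians was not tested.

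**Figure D4:**
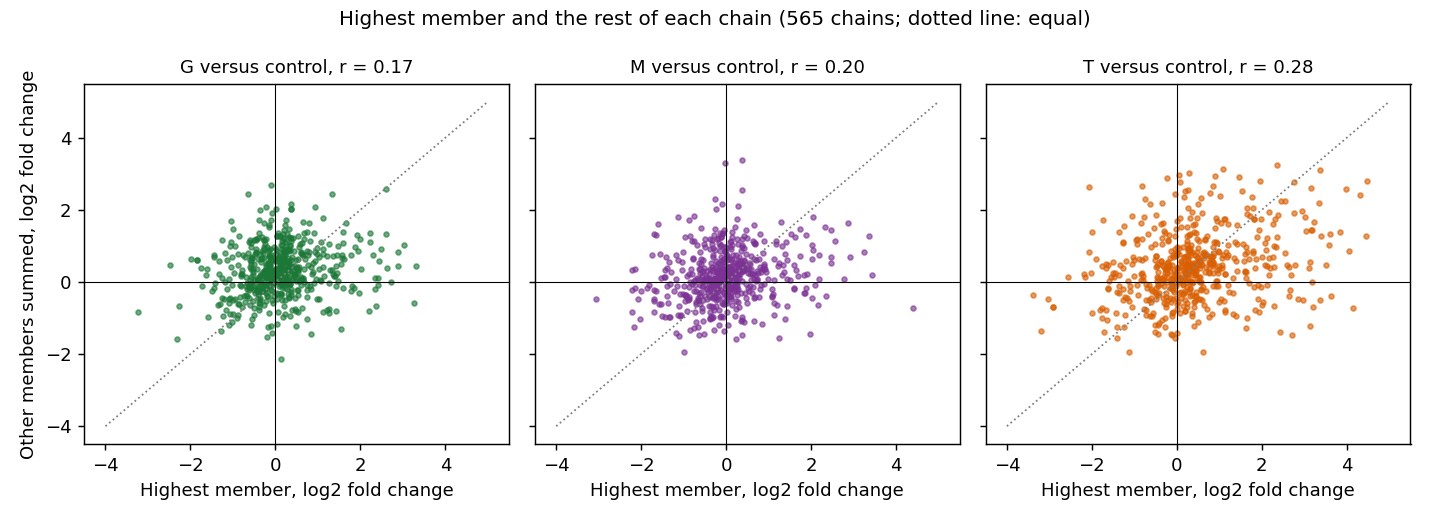
Log2 fold change of the highest member (x axis) and of the other members summed (y axis) for 565 dense chains in G, M and T against the control, with a dotted line where both are equal. The clouds are wide, with r of 0.17 in G, 0.20 in M and 0.28 in T.

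The chains named below were taken by rule, for their size or for the strength or pattern of their response, so their direction is a description of the picks. Levels are CPM of the summed counts on the TMM scale, positions are those of mm9, and p-values are adjusted over all units tested. Values are given for replicates 1, 2 and 3 in turn. Libraries were left out in turn for the fold changes by which a chain was picked on its sum, and not for the other fold changes given.

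In T the chain chr4:45454014-45490044, 9 regions over 36031 bp, was higher than in the control. It had 744, 552 and 504 CPM in T and 168, 193 and 206 CPM in the control, with no overlap. G had 211, 165 and 204 CPM and M 185, 188 and 189 CPM, overlapping the control. The log2 fold change was 1.66 ± 0.27 (SE, adjusted p = 5.25e-05) in T, 0.04 in G and -0.02 in M. MT had 473, 382 and 432 CPM (1.18 ± 0.27), and GMT had 362, 683 and 404 CPM (1.36 ± 0.27). GT had 184, 568 and 365 CPM, where the low value was the library labelled GT replicate 1, which lay within the control range.

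The rise ran along this chain but skipped some members. In T, 6 of the 9 regions were higher and none lower, and in G, M and GM none was called. The first region, chr4:45454014-45454406, had 129, 96.9 and 53.2 CPM in T and 4.45, 6.51 and 6.62 CPM in the control (log2 fold change 3.89). The seventh, chr4:45486069-45486635, had 290, 242 and 247 CPM in T and 53.5, 83.4 and 66.2 CPM in the control (1.92). The eighth, chr4:45487730-45488099, begins within 2 kb of it and had 82.1, 39.5 and 45.6 CPM in T, against 49, 56 and 86.1 CPM in the control. Those last ranges overlapped, and its log2 fold change was -0.25 (adjusted p = 0.654).

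The chain chr8:36479804-36497141, 7 regions over 17338 bp, was higher in G and in T than in the control, in part at different members. The sum was 336, 147 and 275 CPM in G, 721, 587 and 378 CPM in T, 240, 596 and 496 CPM in GMT and 76.4, 73 and 94.4 CPM in the control. G, T and GMT all lay above the control, with log2 fold changes of 1.65 ± 0.34, 2.77 ± 0.34 and 2.46 ± 0.34. With replicate 3 of every group left out, G was not called (1.74, adjusted p = 0.114), nor was GM (1.89, adjusted p = 0.0782). In M it had 173, 135 and 91.5 CPM (0.71, adjusted p = 0.166).

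Its first region, chr8:36479804-36480039, had 88.8, 31.2 and 97.5 CPM in G, 8.79, 12.6 and 28.5 CPM in T and 6.68, 11.7 and 23.6 CPM in the control. Of these single factors G was apart from the control there and T was not, with a log2 fold change of 2.30 against 0.18 in T. Its sixth region, chr8:36495421-36495624, had 8.16, 2.6 and 1.41 CPM in G, 191, 165 and 68.4 CPM in T and 0, 2.61 and 0.946 CPM in the control. There T was apart, with 6.57 against 1.56 (adjusted p = 0.34) in G. The seventh, chr8:36496535-36497141, was higher in both, with 1.66 in G and 2.73 in T. In GMT 6 of the 7 regions were higher. Adding G raised 3 members and lowered 2, the sum did not pass (0.17 ± 0.18, adjusted p = 0.53), and the members were unequal (adjusted p = 4.23e-08).

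The chain chr18:60784941-60798153, 5 regions over 13213 bp, held members called with each single factor. The sum was 224, 168 and 230 CPM in G, 175, 220 and 168 CPM in M, 331, 268 and 275 CPM in T, 354, 755 and 685 CPM in GMT and 114, 114 and 85.2 CPM in the control. All these factor libraries lay above the control. The log2 fold changes were 1.01 ± 0.31 in G, 0.87 ± 0.31 in M (adjusted p = 0.0545, not called), 1.49 ± 0.31 in T, 2.06 ± 0.31 in MT and 2.55 ± 0.32 in GMT.

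Its second region, chr18:60788065-60788409, had 135, 77.1 and 62.7 CPM in T, 5.44, 10.4 and 4.24 CPM in G and 6.69, 10.3 and 15.5 CPM in M, against 6.68, 11.7 and 11.3 CPM in the control. T alone of the single factors was apart there (3.11, adjusted p = 1.34e-05). The fifth region, chr18:60797866-60798153, had 95.3, 129 and 53.2 CPM in M, 9.97, 13 and 6.36 CPM in G and 23.5, 19.7 and 13.3 CPM in T, against 15.6, 5.21 and 6.62 CPM in the control. There M was apart (3.48, adjusted p = 3.68e-05). The fourth region, chr18:60796331-60797239, had 108, 285 and 317 CPM in GMT and 233, 184 and 70.6 CPM in MT, against 13.4, 18.2 and 12.3 CPM in the control. Its log2 fold change was 1.94 in T, 3.49 in MT and 4.04 in GMT.

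A further pair of chains was higher in T than in the control. The chain chr5:97045240-97055661 (4 regions) had 602, 607 and 555 CPM in T and 297, 221 and 190 CPM in the control (1.33 ± 0.33), while G had 115, 208 and 115 CPM and M 110, 102 and 134 CPM. M was lower than the control (-1.03 ± 0.34, adjusted p = 0.0345), and adding T gave 1.76 ± 0.19, with all 3 tested members higher. The chain chr18:36048764-36060213 (5 regions) had 378, 478 and 243 CPM in T, 69.4, 135 and 144 CPM in GT and 80.8, 66.6 and 70.4 CPM in the control. T was above the control (2.34 ± 0.32) and GT was not called (0.68 ± 0.32, adjusted p = 0.147). Its 3 tested members were all higher in T without a sign of inequality (adjusted p = 0.975), and all 3 were lower with added G (sum -0.83 ± 0.18, or -0.60 with an adjusted p of 0.0607 without replicate 1 of every group).

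In M the chain chr18:4994459-5023227, 9 regions over 28769 bp, was higher than in the control. It had 201, 198 and 147 CPM in M and 67.7, 42.2 and 33.3 CPM in the control, with no overlap, and 45.3, 71.1 and 43.3 CPM in G and 104, 68.3 and 58.3 CPM in T. The log2 fold change was 1.99 ± 0.35 (adjusted p = 0.00021) in M, and 4 of the 5 tested members were higher. Its last region, chr18:5022858-5023227, had 86.9, 65.2 and 59.9 CPM in M and 11.1, 10.4 and 7.57 CPM in the control. The neighbour before it, chr18:5018760-5018981, had 1.67, 7.24 and 0 CPM in M and 58.6, 30.5 and 22.8 CPM in T, against 2.23, 0 and 0.946 CPM in the control. That neighbour was the only member called in T (5.11 ± 0.85), and the last region had -0.18 there (adjusted p = 0.885). In GMT all 5 tested members were higher.

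Against the control, the chain chr10:67619433-67631589 (4 regions) was higher in M and lower in T. It had 323, 252 and 289 CPM in M, 25.9, 44.3 and 45.2 CPM in T and 120, 94.7 and 85.2 CPM in the control. The groups did not overlap: M was above (1.54 ± 0.27) and T below (-1.32 ± 0.32). MT had 194, 215 and 195 CPM (1.03 ± 0.27) and GMT 150, 183 and 204 CPM (0.88 ± 0.28), between M and the control. Adding M gave 1.64 ± 0.17 and adding T -0.58 ± 0.16. Without G replicate 3, adding T gave -0.38 (adjusted p = 0.0588).

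In M, chr18:20711392-20720539 (4 regions) was lower and chr13:52913581-52928831 (7 regions) higher than in the control. The first had 151, 127 and 134 CPM in M, 278, 352 and 369 CPM in MT and 382, 356 and 290 CPM in the control. M lay below the control (-1.32 ± 0.21), with all 3 tested members lower. GM was also called lower with 173, 226 and 183 CPM (-0.83 ± 0.21), G lay below with 240, 236 and 242 CPM but was not called (-0.51, adjusted p = 0.0912), and MT overlapped the control (-0.04). The second had 188, 159 and 198 CPM in M and 89.5, 87.1 and 79.6 CPM in the control (1.09 ± 0.28), or 1.03 (adjusted p = 0.0516) without control replicate 3 and 0.96 (adjusted p = 0.172) without replicate 3 of every group.

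The chains chr17:63098118-63106907 (4 regions) and chr1:152977218-153005111 (6 regions) were higher in G than in the control. The first had 228, 129 and 166 CPM in G and 50.2, 43.5 and 45.4 CPM in the control (1.94 ± 0.36). T also lay above the control there with 233, 103 and 92.2 CPM (1.60 ± 0.37), as did all libraries of the other factor groups. All these groups had the inhibitors and the control did not, so factors and inhibitors cannot be told apart there. With replicate 3 of every group left out, G was not called (1.98, adjusted p = 0.114), nor was GM (1.79, adjusted p = 0.0979), and without replicate 2 of every group GT was not called (1.57, adjusted p = 0.0647). The second had 136, 112 and 101 CPM in G, 138, 267 and 238 CPM in GMT and 63.3, 39.7 and 29.6 CPM in the control. G and GMT lay above the control (1.45 ± 0.30 and 2.36 ± 0.30), with 4 of 5 tested members higher in G and 5 of 5 in GMT, and M was also called there (0.88 ± 0.31, adjusted p = 0.0497). Adding G raised chr5:64629021-64635804 (4 regions) by 1.01 ± 0.19 on the log2 scale. It had 354, 160 and 286 CPM in G and 87.3, 154 and 135 CPM in the control.

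The chain with the most members higher in GMT was chr7:56080135-56104077, 8 regions over 23943 bp. It had 199, 395 and 313 CPM in GMT and 83, 47.4 and 52.8 CPM in the control, with no overlap (2.37 ± 0.30, adjusted p = 4.28e-06), and 7 of 8 regions were higher. Single factors reached different members, 1 each: G the fifth (2.03), M the seventh (2.39) and T the second (2.65). The fifth region, chr7:56088204-56088660, had 94.3, 57.1 and 57.2 CPM in G, 11.7, 8.27 and 15.5 CPM in M and 38.1, 34.1 and 36.1 CPM in T, against 20, 11.7 and 19.9 CPM in the control. G and T both lay above the control there, and T was not called (1.06, adjusted p = 0.0715). The seventh, chr7:56103423-56103625, had 0.906, 10.4 and 0.706 CPM in G, 11.7, 22.8 and 31.1 CPM in M and 0, 7.18 and 3.8 CPM in T, against 4.45, 3.91 and 3.78 CPM in the control. At the seventh M was the group apart from the control, and the members were unequal with added M (adjusted p = 3.43e-13).

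Fewer chains went down, and some of the falls named here were shared by several factor groups, as were some of the rises above. How often falls or rises were shared over all dense chains was not counted. The factor groups all had the inhibitors and the control did not, so factors and inhibitors cannot be told apart in a shared fall. The chain chr2:11257754-11268491 (4 regions) had 156, 305 and 191 CPM in G, 143, 126 and 160 CPM in M, 366, 206 and 172 CPM in GMT and 397, 531 and 509 CPM in the control. All factor libraries were below the control, with log2 fold changes of -1.17 ± 0.31 in G, -1.76 ± 0.32 in M and -1.22 ± 0.31 in MT, and the sum was also called lower in GMT (adjusted p = 0.0144). The fall was at the third region, chr2:11260677-11260917, with 213, 56.7 and 59.5 CPM in GMT, against 343, 478 and 468 CPM in the control. The fourth, chr2:11268291-11268491, went the other way in GMT, with 56.2, 24.5 and 37.7 CPM against 11.1, 6.51 and 5.67 CPM in the control (2.34). The sum was not called in G without G replicate 1 (-0.97, adjusted p = 0.0858) or replicate 3 (-1.09, adjusted p = 0.0576). In GMT it was not called without GMT replicate 2 (-0.90, adjusted p = 0.074) or replicate 3 (-0.77, adjusted p = 0.112), nor with loess offsets (-0.79, adjusted p = 0.0698).

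In T the chain chr11:72655906-72670458 (4 regions) was lower than in the control. It had 23.1, 12.9 and 16.9 CPM in T, 82.6, 58.4 and 131 CPM in G and 76.4, 99.9 and 113 CPM in the control. T was below the control (-2.49 ± 0.44), as were MT (-2.12 ± 0.41) and GMT (-1.74 ± 0.41). M also lay below with 60, 29 and 55.3 CPM but was not called (-1.04, adjusted p = 0.0595), and G overlapped the control (-0.07). Also lower in T was chr9:69302238-69325204 (5 regions), with 77.8, 84.9 and 166 CPM in T and 264, 339 and 314 CPM in the control (-1.47 ± 0.28). M had 195, 206 and 223 CPM there and was not called (-0.56, adjusted p = 0.157). GT had 261, 168 and 174 CPM, MT 130, 182 and 223 CPM and GMT 215, 159 and 125 CPM. All libraries of M, GT, MT and GMT lay below the control there. The chain chr10:51664263-51683735 (4 regions) had 60.5, 66.5 and 139 CPM in T, 115, 77.1 and 177 CPM in M and 284, 252 and 237 CPM in the control. It was called lower in T (-1.51 ± 0.37) and in M (-1.09 ± 0.35, adjusted p = 0.0317). The falls there in GT (-1.07 ± 0.35), MT (-1.04 ± 0.35) and GMT (-1.11 ± 0.36) were less firm. GT was not called without GT replicate 1 (-1.10, adjusted p = 0.0517), GT replicate 2 (-0.92, adjusted p = 0.158) or any 1 control library (adjusted p of 0.0694 to 0.0745). MT was not called without MT replicate 1 (-0.74, adjusted p = 0.208), MT replicate 2 (-1.18, adjusted p = 0.0514) or any 1 control library (adjusted p of 0.0589 to 0.0639). GMT was not called without GMT replicate 2 (-0.87, adjusted p = 0.127) or replicate 3 (-1.03, adjusted p = 0.0841).

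The chain chr15:66706918-66725806 (6 regions) was called lower in G, M, GM and GT. It had 263, 487 and 493 CPM in G, 407, 394 and 426 CPM in M, 496, 473 and 610 CPM in T and 655, 929 and 1023 CPM in the control, with no overlap. The log2 fold change was -1.08 ± 0.28 in G, -1.09 ± 0.28 in M, -0.83 ± 0.28 in GM (adjusted p = 0.0478) and -0.73 ± 0.28 in T (adjusted p = 0.053, not called). All 4 tested members were lower in G with no sign of inequality (adjusted p = 0.888). In GT it was -1.01 ± 0.28, or -0.68 (adjusted p = 0.0813) without GT replicate 1 and -0.88 (adjusted p = 0.0701) without control replicate 3. The chain chr3:19853945-19864970 (4 regions) had 74.6, 175 and 99.2 CPM in G, 167, 86.8 and 215 CPM in T, 108, 154 and 149 CPM in GT and 260, 296 and 231 CPM in the control. It was called lower in G (-1.23 ± 0.30), or -0.97 (adjusted p = 0.0788) without G replicate 1, and in GT (-0.94 ± 0.30, adjusted p = 0.0269). T lay below the control without a call (-0.75, adjusted p = 0.0665). In GMT all 4 members of chr6:108609366-108615819 were lower than in the control. Its sum was 914, 543 and 617 CPM in GMT and 971, 1127 and 1311 CPM in the control (-0.73 ± 0.21). M lay below the control without a call (-0.54, adjusted p = 0.0755). Adding M lowered chr14:79639251-79649266 (4 regions), with a log2 difference of -0.77 ± 0.14. It had 73, 53.1 and 66 CPM in M, against 122, 142 and 133 CPM in the control (-1.06 ± 0.25).

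In some chains rises and falls cancelled. The chain chr12:105295260-105308123 (6 regions) had 150, 143 and 128 CPM in GMT and 144, 137 and 167 CPM in the control, which overlapped (-0.10 ± 0.24, adjusted p = 0.785). In GMT 2 members were higher and 2 lower, and the members were unequal (adjusted p = 8.92e-09). The third region, chr12:105298304-105298575, had 24.1, 46.4 and 38.7 CPM in GMT and 2.23, 10.4 and 4.73 CPM in the control. The fifth, chr12:105303317-105303533, had 40.1, 21.9 and 10.9 CPM in GMT and 95.8, 87.3 and 96.5 CPM in the control. The third region was thus up and the fifth down, neither overlapping the control. In M the sum was also called lower (-0.96 ± 0.24). In GM it fell by 0.85 (adjusted p = 0.0203), a call lost without GM replicate 1 (adjusted p = 0.0987), GM replicate 3 (adjusted p = 0.0786) or control replicate 3 (-0.76, adjusted p = 0.119).

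With single factors the same cancelling was seen in chr6:145862791-145900807 in T, chr11:109484063-109511882 in M and chr14:70053936-70074541 in G. The chr6 chain (7 regions) had 161, 151 and 128 CPM in T and 100, 127 and 161 CPM in the control (0.16 ± 0.29). The fifth region, chr6:145890738-145891518, had 55.7, 57.4 and 15.2 CPM in T and 2.23, 6.51 and 5.67 CPM in the control, while its sixth, chr6:145899325-145899527, had 2.93, 0 and 9.49 CPM in T and 24.5, 45.6 and 47.3 CPM in the control. The fifth was up and the sixth down in all 3 libraries.

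The chr11 chain (7 regions) had 370, 392 and 385 CPM in M and 354, 366 and 375 CPM in the control (0.07 ± 0.22). Its first region, chr11:109484063-109484462, had 76.9, 99.3 and 73.2 CPM in M and 20, 10.4 and 6.62 CPM in the control, and the fourth, chr11:109503110-109503316, had 66.9, 43.4 and 53.2 CPM in M and 95.8, 129 and 131 CPM in the control. In G it was neither of these but the fifth and sixth regions that were called, both higher (1.26 and 1.32).

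The chr14 chain (6 regions) had 139, 160 and 212 CPM in G and 181, 165 and 183 CPM in the control (-0.04 ± 0.22). The fifth region, chr14:70066712-70066914, had 44.4, 36.4 and 59.3 CPM in G and 4.45, 10.4 and 4.73 CPM in the control (2.81 ± 0.54), and the second, chr14:70056903-70057200, was lower (-1.06 ± 0.31). In GMT the third and sixth regions were higher and the fourth lower, and the fifth was not called (0.31, adjusted p = 0.744). The members called in G and in GMT were different ones.

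**Figure D5:**
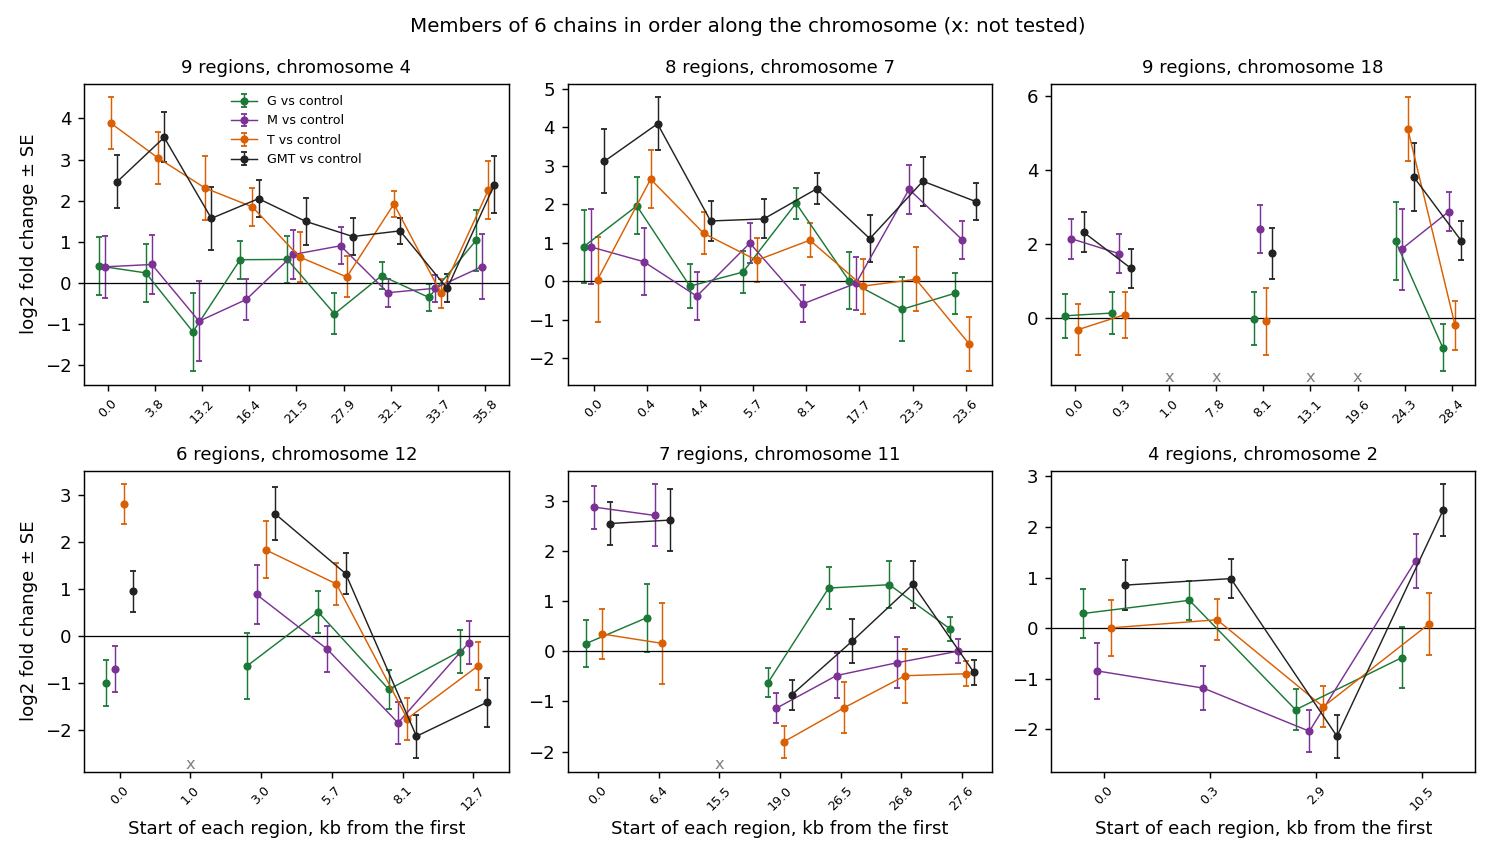
Log2 fold change ± SE of each tested member of 6 chains in chromosome order, for G, M, T and GMT against the control, with the start of each region in kb from the first on the x axis and a cross where a member was not tested. In the chromosome 4 chain T and GMT are high at most members, and in the chromosome 12 chain GMT runs from 2.60 at the third region to -2.13 at the fifth.

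The 3 longest chains showed no common response. The chain of 13 regions, chr7:29704691-29743676, had 279, 193 and 400 CPM in G, 203, 372 and 230 CPM in GMT and 177, 221 and 225 CPM in the control. These ranges overlapped and its sum was called in none of the 10 comparisons by edgeR (0.50 ± 0.25 in G, adjusted p = 0.181), although 4 of its 11 tested members were higher in G. The chain of 11, chr8:124806473-124846934, had 973, 452 and 1032 CPM in G and 382, 365 and 427 CPM in the control (1.07 ± 0.30, adjusted p = 0.0135), with 4 members higher in G. The chain of 10 with the longer span, chr15:58076604-58124579, had 89.4, 301 and 235 CPM in GMT and 107, 98.6 and 109 CPM in the control (1.04 ± 0.28, adjusted p = 0.00599), with 4 members higher and 1 lower. There GMT replicate 1 lay below all 3 control libraries, and GMT replicates 2 and 3 lay above them.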

How the data were processed

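Each library was represented by the counts of sequencing fragments or reads per region that the authors deposited, raw and not scaled. Per the submitters' processing notes, Bowtie2, Picard and featureCounts were used with the genome build mm9; versions, filters and the way the regions were defined are not given in the sources used here. Per the labels' protocols, libraries were made from aliquots of 50000 cells with 12 PCR cycles and read as 100 bp pairs. Of 27 labelled samples, 24 libraries (3 in each of 8 groups) were analysed; 3 dsRed samples with the inhibitors were not analysed here.

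Regions were chained at gaps of 10000 bp or less. Counts of single regions, and counts summed per chain, were each filtered (filterByExpr, minimum count 10, minimum total 15), scaled by TMM and tested with edgeR 4.0.16 in R 4.3.3 (quasi-likelihood fit over all 24 libraries, Benjamini-Hochberg adjusted p below 0.05). A prior count of 2 was used for log2 CPM and was not set in the fit, which kept the edgeR default. Unequal response of members was tested with diffSpliceDGE, and shares of counts with permutation tests (exact for the comparison with the control, 100000 resamples otherwise). The standard error is the log2 fold change divided by the square root of F. The scripts were tested on simulated counts. p-values measure the spread between libraries, which may be technical. Intervals cover counting error only.

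The members and lists were chosen with earlier results of these data known. Chains were named by rule: the 3 with most regions; the 2 highest and 2 lowest called chains per comparison with the control, and 1 each per average, among those at or above the median level whose libraries did not overlap; and, for G, M, T and GMT, the chains with most members called in both directions or in 1 direction alone. Alternatives were other scalings, filters, gaps and chain sizes, DESeq2 1.42.0, fits of the compared groups alone, a replicate block and left-out libraries; merging regions and leaving out GT replicate 1 throughout were added after seeing the data. No sequence or gene is given, because no mm9 genome was used here.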

Additional observations from a re-analysis of the deposited data

How the results depend on the processing

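Of the values that answer a comparison, 374 kept their direction and stayed on their side of the threshold, or within 1.5 times of a count, outside the single leave-outs, while 33 moved, 3 weakened, 1 strengthened and 2 reversed. With the fit made on the compared groups alone, member regions called were 25.5% in G, 36.0% in M, 40.0% in T, 23.6% in GM and 38.5% in MT, chains called 29.7% in M and 16.3% in GM, and unequal chains 38.6% in G, 49.0% in M and 34.5% in GM; with no filter, 10.4% of member regions were called in G. With a gap of 5000 bp, unequal chains were 15.3% in G, 12.4% in GM and 17.3% in GT, and neighbours shared a sign in 63.5% (G), 68.4% (T), 61.8% (GM), 63.9% (GT), 66.2% (MT), 69.6% (GMT) and 69.6% (added T) of pairs. With 20000 bp these were 55.8% (M), 56.0% (GM), 61.0% (GMT) and 62.7% (added T), and with regions 500 bp or less apart merged 56.5% (G), 55.9% (M), 58.8% (T), 53.8% (GM), 56.6% (GT), 55.9% (added G), 56.9% (added M) and 62.4% (added T). The difference in share between factor and control libraries was 1.84 percentage points at 20000 bp (adjusted p = 0.087), 1.47 for chains of 3 or more (adjusted p = 0.13) and 0.977 without GT replicate 1 and GMT replicate 2 together (adjusted p = 0.0623). The difference with Gata4 was then -0.0235, and at 5000 bp -0.0561, both reversed, and that with Tbx5 was 0.369 at 5000 bp and passed (adjusted p = 0.048). The cause of these shifts was not tested. With total counts alone the median log2 fold change of all units in T was -0.13, against -0.03 with TMM.

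Leaving out 1 library, or 1 replicate number in all groups, gave these lowest and highest values. Chains called were 0 to 21.3 in G, 3.46 to 15.1 in M, 15.4 to 35.9 in T, 0 to 13 in GM, 1.04 to 20.1 in GT, 10.4 to 28.2 in MT, 8.82 to 39.5 in GMT, 10.7 to 20.8 with added G, 5.88 to 19.9 with added M and 20.8 to 36 with added T (percent). Member regions called were 0.0466 to 19.4 in G, 3.97 to 16.4 in M, 12.7 to 27.2 in T, 0.373 to 14.7 in GM, 1.74 to 22.5 in GT, 11.4 to 27.9 in MT, 8.35 to 42.5 in GMT, 10.8 to 23.1 with added G, 9.75 to 23.7 with added M and 18.2 to 36.3 with added T (percent). Unequal chains were 0.545 to 28.4 in G, 8 to 27.7 in M, 18.4 to 43 in T, 0.364 to 24.7 in GM, 6.75 to 32.4 in GT, 16.4 to 45.7 in MT, 12.9 to 51.9 in GMT, 18.9 to 40.9 with added G, 19.6 to 39.3 with added M and 24.6 to 55.4 with added T (percent). Same-sign neighbours, without GT replicate 1 alone, were 59.5 in G, 58.5 in M, 62.6 in T, 58.9 in GM, 61.5 in GT, 60.9 in MT, 65.3 in GMT, 59.1 with added G, 60.1 with added M and 64.6 with added T (percent). The share difference was 0.956 to 1.15 percentage points between factor and control libraries, -0.0438 to 0.308 with Gata4, -0.474 to -0.136 with Mef2c and 0.568 to 0.857 with Tbx5; with Gata4 it reversed without GMT replicate 2. Of 800 fold changes of named chains under alternatives, 743 kept their call, 57 lost it and 0 reversed.

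The replicate numbers did not clearly pair the libraries. Same-numbered libraries of different groups correlated at -0.437 to 0.482 in their deviations (median 0.015, 24 of 84 pairs over 0.1). Other-numbered libraries correlated at -0.387 to 0.478 (median -0.009, 43 of 168 pairs over 0.1). Of 24 libraries, 11 correlated best with their own number, and a weak pairing is not excluded. The replicate block gave 70 called chains in G, 75 in M, 167 in T, 55 in GM, 95 in GT, 147 in MT and 210 in GMT, and the paired share difference was 1.08 percentage points. Loess offsets were not run for unequal members. Depth limits weak regions: 619 members did not pass the filter.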
